A study of Homo sapiens with 9 samples.

Results

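The genes described here are 10 transcriptional targets of the tumour suppressor p53 that act in DNA repair, redox balance and metabolism, namely TP53I3, TIGAR, POLH, XPC, DDB2, RRM2B, ZMAT3, FDXR, TP53INP1 and SPATA18. They were taken by name, and 9 of the 10 had a probe set carrying their symbol alone, out of 14232 genes so named among 22011 probe sets. The expression of FDXR, the reductase that feeds electrons to mitochondrial ferredoxin, was not analysed here. The cells were HEK293, a human embryonic kidney line transformed with adenovirus DNA, whose E1B protein is known to bind p53. They received a stealth siRNA (a chemically modified RNA duplex) against ZNF326 (also called ZIRD), against DBC1 (the gene CCAR2), or a control siRNA, and are written as siZNF326, siDBC1 and siCTR. RNA was collected at 48 h in 3 independent experiments, giving 3 arrays per siRNA and 9 in all; no untransfected cells were analysed here, and every group was transfected. DBC1 and ZNF326 are the subunits of DBIRD, a complex that associates with RNA polymerase II and messenger ribonucleoprotein particles, and the series addresses its part in gene expression and splicing. Whether 1 or several siRNA sequences were used per target is not given in the sources used here.

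p53 is a DNA-binding transcription factor that is held at a low level by the ubiquitin ligase MDM2 and accumulates after DNA damage and other stress. It binds pairs of short half-sites in or near its target genes, and its targets divide into genes that stop the cell cycle, genes of cell death, genes that feed back on p53, and the genes of damage repair, nucleotide supply and metabolism described here. Whether p53 protein or its activity differed between these cells was not tested.

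To show the DNA next to which these genes start, promoter sequences were read from RefSeq on GRCh38.p14 for the members whose 3 arrays lay above all siCTR arrays under both siRNAs (TP53I3, TIGAR and POLH). The 250 bases before each start are given 5′ to 3′ on the strand of the gene, at chr2:24084835-24085084 (minus strand) for TP53I3, chr12:4320963-4321212 (plus strand) for TIGAR and chr6:43575935-43576184 (plus strand) for POLH, with GGGCGG or its complement CCGCCC, the GC box read by Sp1-type factors, in capitals. The 3 starts differed in base composition, with 51.2% G or C for TP53I3, 76.8% for TIGAR and 76.0% for POLH. TP53I3 had 0 GC boxes there and TIGAR and POLH had 3 each, of which 2 in POLH overlap.
TP53I3: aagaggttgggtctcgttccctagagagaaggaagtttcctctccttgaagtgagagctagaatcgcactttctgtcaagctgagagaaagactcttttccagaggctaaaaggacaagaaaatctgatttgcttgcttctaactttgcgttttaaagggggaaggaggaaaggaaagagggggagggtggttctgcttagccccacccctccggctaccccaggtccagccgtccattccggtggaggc
TIGAR: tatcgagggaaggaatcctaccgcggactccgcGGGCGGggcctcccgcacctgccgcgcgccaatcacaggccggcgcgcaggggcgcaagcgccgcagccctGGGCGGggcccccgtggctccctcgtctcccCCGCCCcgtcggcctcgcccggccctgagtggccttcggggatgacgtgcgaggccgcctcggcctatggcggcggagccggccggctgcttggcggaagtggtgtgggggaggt
POLH: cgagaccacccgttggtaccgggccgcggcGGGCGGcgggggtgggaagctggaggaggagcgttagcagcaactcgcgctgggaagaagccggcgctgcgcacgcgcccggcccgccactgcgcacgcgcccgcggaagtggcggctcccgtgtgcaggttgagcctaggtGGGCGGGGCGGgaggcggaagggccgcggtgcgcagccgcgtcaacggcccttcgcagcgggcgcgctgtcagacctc
The search was widened to 300 bases, 250 before to 50 after each start, with 11 such windows for 8 members, FDXR included, since several genes have more than 1 start. RRM2B and TP53INP1 had no window and were not searched. A GC box on either strand stood in 7 of the 11 windows and in 45.0% of all 35116 RefSeq windows of that length. TATAAA stood in 0 of 11 against 11.5% of all, and CCAAT, on either strand, in 4 of 11 against 34.6%. An exact p53 half-site was found in 2 of 11 windows (1 of DDB2 and 1 of FDXR) and in 6.63% of all. The search for pairs required both central 4-base cores intact, and allowed 1 mismatch elsewhere in each half-site and a spacer up to 13 bases. A pair was found in 1 of the 11 windows and in 0.897% of all. That pair belongs to DDB2, at chr11:47214979-47214999 on the plus strand of GRCh38.p14. It runs from base 6 to base 26 after the downstream of 2 DDB2 starts. Both its half-sites match without a mismatch, around a spacer of 1 base, and the capitals mark the 4-base core of each.
DDB2: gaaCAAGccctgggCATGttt
These matches are descriptions of letters in short windows, and sites that lie farther away, as in introns, were not searched.

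All values below are log2 expression values per probe set, so a difference of 1 is a doubling, and each comparison was tested with limma over all 22011 probe sets with Benjamini-Hochberg adjustment, a call being an adjusted p under 0.05. The knockdown targets were read first. CCAR2 stood at 8.01, 7.95 and 7.99 in siZNF326 arrays, at 6.50, 6.54 and 6.65 in siDBC1 arrays and at 7.67, 7.67 and 7.84 in siCTR arrays. It fell in siDBC1 arrays by 1.16 (SE 0.079, adjusted p = 0.0116 by limma), while it was 0.26 above siCTR in siZNF326 arrays (adjusted p = 0.377). ZNF326 stood at 6.12, 5.56 and 5.81 in arrays labelled siZNF326, at 6.24, 5.64 and 7.32 in siDBC1 arrays and at 5.25, 5.64 and 5.76 in siCTR arrays. Its probe set was thus not lower in arrays labelled siZNF326 (difference 0.28, adjusted p = 0.851), so those arrays are called by their label throughout and each direction for them rests on it.

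The arrays also differed within their groups. The first principal component of all probe sets, here the array axis, held 45.2% of the variance, and siDBC1 replicate 2 (-54.0), siZNF326 replicate 1 (53.2) and siDBC1 replicate 3 (43.9) lay farthest along it, with the other 6 arrays between -19.0 and 4.87. Markers of HEK293 cells (vimentin, keratins 8 and 18, neurofilaments and PAX2) had 7 of 7 probe sets, at percentiles 45.7 to 98.8 of an array's values. Of 8 genes of blood, liver, vessel, fibroblast and squamous cells, 6 were measured; they lay at percentiles 4.52 to 44.0 except COL1A1, a fibroblast collagen, at 63.0 to 73.7.

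All 9 genes averaged highest in siZNF326 arrays, next in siDBC1 arrays and lowest in siCTR arrays, an order held by 23.3% of all probe sets. The mean was higher for 56.6% of all probe sets in siZNF326 against siCTR, for 53.8% in siDBC1 against siCTR and for 55.4% in siZNF326 against siDBC1. In RNA from whole cultures, a larger share of cells with a transcript and more of it per cell cannot be told apart. The median difference of the 9 was 0.74 (1.66-fold) for siZNF326 against siCTR, within a range of 0.39 to 1.66, and 0.32 (1.25-fold) for siDBC1 against siCTR, within a range of 0.11 to 1.07. Over all probe sets these medians were 0.032 and 0.014. TP53I3 rose in siZNF326 arrays and was the 1 member of 9 called there, where 0.15% of all probe sets were called. None of the 9 was called in siDBC1 arrays against siCTR (0.0363% of all probe sets called), although 5 had an unadjusted p under 0.05. None was called between siZNF326 and siDBC1 (0.00909% called), where 2 had an unadjusted p under 0.05. The 2 siRNA groups were compared with the same siCTR arrays, so their differences are not independent of each other.

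**Figure D1:**
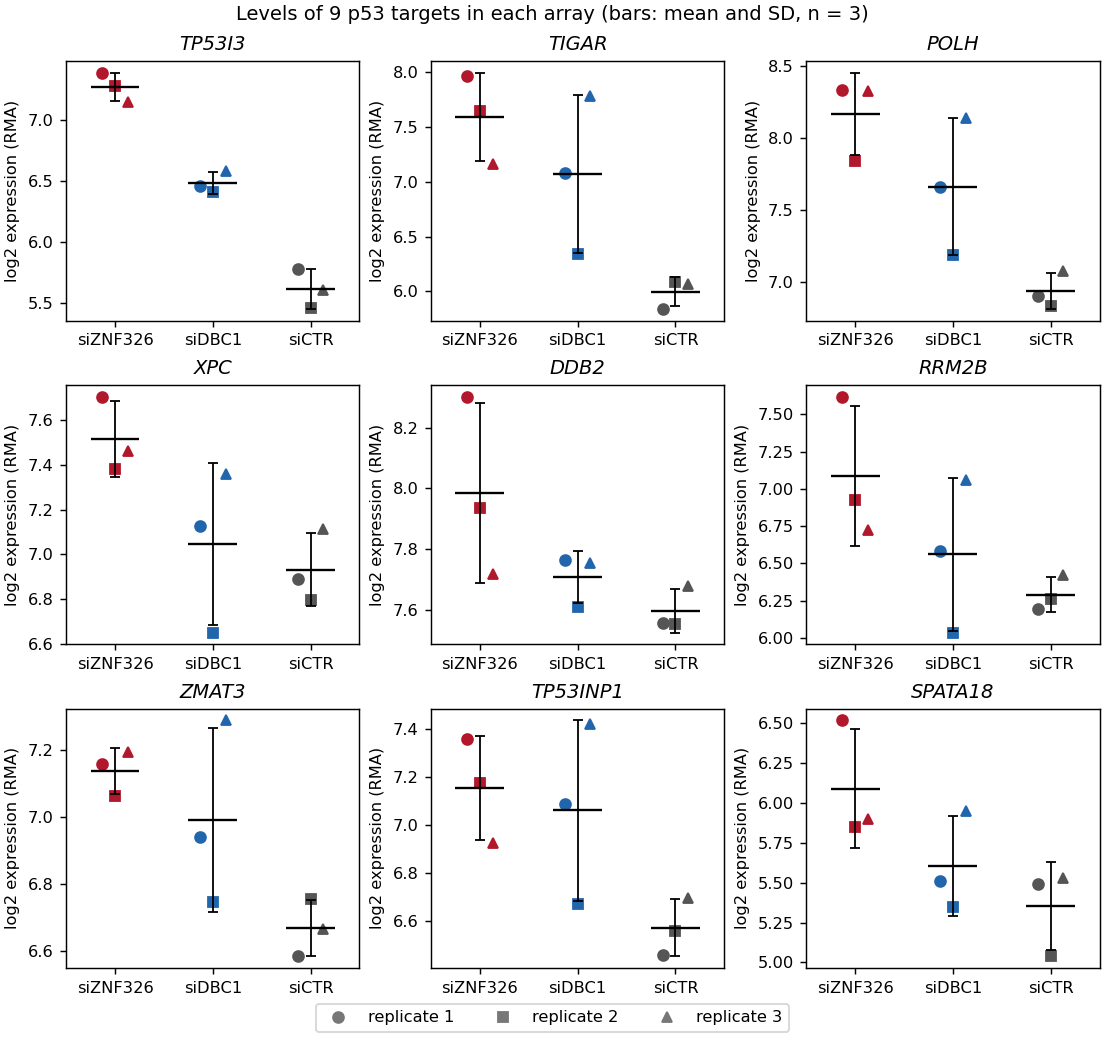
Log2 expression of each of the 9 genes (1 panel per gene) in every array, with siZNF326 at the left, siDBC1 in the middle and siCTR at the right of each panel; points are single arrays, and horizontal lines with error bars are group means with the SD (n = 3). The 3 siZNF326 arrays lie above the 3 siCTR arrays in all 9 panels, and the 3 siDBC1 arrays do so for TP53I3, TIGAR and POLH.

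Counted by array, all 3 siZNF326 arrays lay above all 3 siCTR arrays for 9 of the 9 genes, against 12.9% of all probe sets. For siDBC1 this held for 3 of 9, TP53I3, TIGAR and POLH, against 5.18% of all probe sets. These 3 were also the members above siCTR under both siRNAs, which 2.33% of all probe sets were. With 3 arrays per group an exact permutation test of 1 gene cannot go below p = 0.10 (two-sided), so a lack of overlap is a description of these arrays.

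The redox and carbon metabolism genes held the largest differences. TP53I3 encodes a quinone oxidoreductase that uses NADPH and is known as a p53 target with a role in oxidative stress. It stood at 7.39, 7.28 and 7.15 in siZNF326 arrays, at 6.46, 6.41 and 6.58 in siDBC1 arrays and at 5.78, 5.46 and 5.61 in siCTR arrays. The 3 groups formed 3 separate bands, siZNF326 on top and siCTR at the bottom, with a gap of 0.57 between the siZNF326 and siDBC1 arrays and of 0.63 between the siDBC1 and siCTR arrays. Its level rose in siZNF326 arrays by 1.66 (SE 0.11, 95% interval 1.41 to 1.91, 3.15-fold, adjusted p = 0.00523 by limma). In siDBC1 arrays it was 0.87 above siCTR (SE 0.11, interval 0.62 to 1.12, 1.83-fold), which did not pass the threshold (adjusted p = 0.0874 by limma). The siZNF326 arrays exceeded the siDBC1 arrays by 0.79 (interval 0.54 to 1.04, adjusted p = 0.189). When single arrays were left out, the call in siZNF326 arrays was lost without siCTR replicate 3 (adjusted p = 0.0723) and without siZNF326 replicate 2 (0.0714), while the difference stayed between 1.58 and 1.74. Leaving out the 3 arrays farthest along the array axis gave a difference of 1.60 and also ended the call (adjusted p = 0.165).

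TIGAR encodes a phosphatase that lowers fructose-2,6-bisphosphate, which slows glycolysis and favours the pentose phosphate pathway and NADPH. Its level was 7.96, 7.64 and 7.16 in siZNF326 arrays, 7.08, 6.34 and 7.78 in siDBC1 arrays, and 5.84, 6.08 and 6.07 in siCTR arrays. All 6 arrays with a targeting siRNA lay above the 3 siCTR arrays, but the siDBC1 arrays were widely spread (SD 0.72, against 0.14 in siCTR) and overlapped the siZNF326 arrays. The mean difference from siCTR was 1.59 in siZNF326 arrays (SE 0.35, interval 0.77 to 2.41, 3.01-fold, adjusted p = 0.217 by limma) and 1.07 in siDBC1 arrays (interval 0.25 to 1.88, 2.09-fold, adjusted p = 0.669). Neither passed the threshold, and the siDBC1 difference moved between 0.71 and 1.43 as single arrays were left out.

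POLH and the excision repair genes XPC and DDB2 come next. POLH encodes DNA polymerase eta, which copies past ultraviolet-damaged bases and is lacking in the variant form of xeroderma pigmentosum. POLH stood at 8.34, 7.84 and 8.33 in siZNF326 arrays, at 7.66, 7.19 and 8.14 in siDBC1 arrays and at 6.90, 6.83 and 7.08 in siCTR arrays. Again the 6 arrays with a targeting siRNA lay above siCTR, with siDBC1 replicate 3 inside the siZNF326 range and siDBC1 replicate 2 closest to siCTR. It was 1.23 above siCTR in siZNF326 arrays (SE 0.24, interval 0.67 to 1.80, 2.35-fold, adjusted p = 0.15 by limma) and 0.73 above it in siDBC1 arrays (interval 0.16 to 1.29, 1.65-fold, adjusted p = 0.694).

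XPC and DDB2 both recognise damage at the start of global-genome nucleotide excision repair. XPC stood at 7.71, 7.38 and 7.46 in siZNF326 arrays, at 7.13, 6.65 and 7.36 in siDBC1 arrays and at 6.89, 6.79 and 7.11 in siCTR arrays. The siZNF326 arrays lay above both other groups, by as little as 0.023 over the highest siDBC1 array, and the siDBC1 arrays overlapped siCTR. XPC was 0.58 above siCTR in siZNF326 arrays (SE 0.19, interval 0.15 to 1.02, adjusted p = 0.415 by limma), and the siDBC1 difference was 0.11 (interval -0.32 to 0.55, adjusted p = 0.993), with -0.042 when siDBC1 replicate 3 was left out. The siZNF326 arrays exceeded the siDBC1 arrays by 0.47 (interval 0.03 to 0.91, adjusted p = 0.674), or by 0.27 without siDBC1 replicate 2.

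DDB2, whose product binds ultraviolet lesions, had the smallest difference of the 9 in siZNF326 arrays. It stood at 8.30, 7.93 and 7.72 in siZNF326 arrays, at 7.76, 7.61 and 7.75 in siDBC1 arrays and at 7.56, 7.55 and 7.68 in siCTR arrays. The lowest siZNF326 array was only 0.039 above the highest siCTR array, and the siDBC1 and siCTR arrays overlapped. The siZNF326 difference was 0.39 (SE 0.14, interval 0.05 to 0.72, 1.31-fold, adjusted p = 0.508 by limma), and 0.23 without siZNF326 replicate 1. For siDBC1 it was 0.11 (interval -0.22 to 0.45, adjusted p = 0.983).

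RRM2B encodes the p53-inducible small subunit of ribonucleotide reductase, which supplies deoxynucleotides for repair and for mitochondrial DNA outside S phase. It stood at 7.62, 6.93 and 6.72 in siZNF326 arrays, at 6.58, 6.04 and 7.06 in siDBC1 arrays and at 6.19, 6.26 and 6.42 in siCTR arrays. Replicate 1 of siZNF326 was the highest of the 9 arrays, and siDBC1 replicate 2 was the lowest, below every siCTR array. The difference from siCTR was 0.80 for siZNF326 (SE 0.30, interval 0.11 to 1.49, 1.74-fold, adjusted p = 0.512 by limma) and 0.27 for siDBC1 (interval -0.42 to 0.96, adjusted p = 0.979). The siDBC1 value was 0.02 without siDBC1 replicate 3 and 0.53 without siDBC1 replicate 2.

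**Figure D2:**
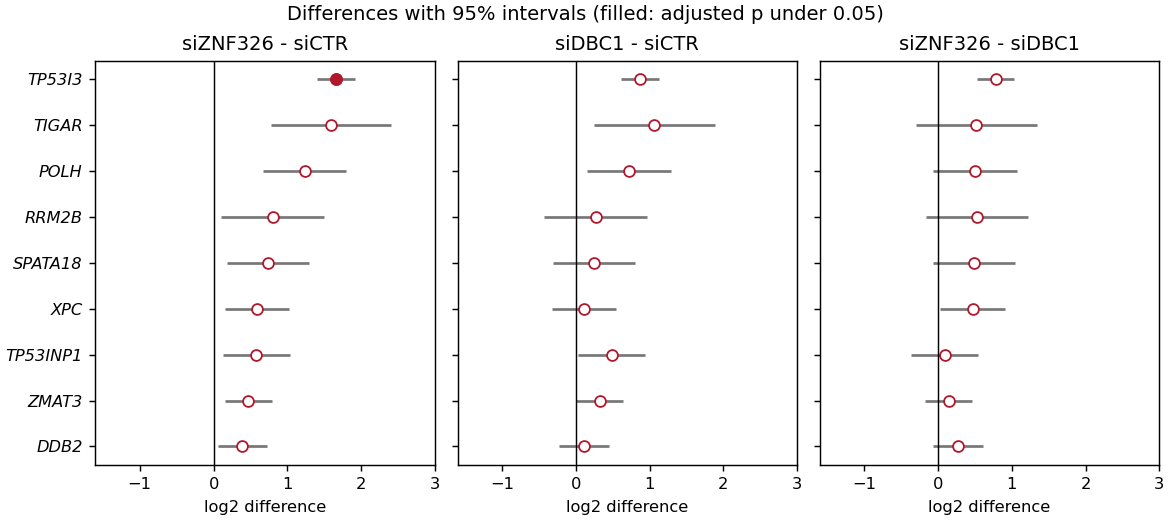
Difference in log2 expression of each of the 9 genes with its 95% interval, with siZNF326 against siCTR in the left panel, siDBC1 against siCTR in the middle and siZNF326 against siDBC1 at the right. TP53I3 has the largest siZNF326 difference (1.66) and is the filled point, its adjusted p being under 0.05; siDBC1 differences run from 0.11 to 1.07.

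ZMAT3, TP53INP1 and SPATA18 act in RNA binding, stress signalling and mitochondrial upkeep. ZMAT3 is a zinc finger protein that binds RNA, and it stood at 7.16, 7.06 and 7.20 in siZNF326 arrays, at 6.94, 6.75 and 7.29 in siDBC1 arrays and at 6.59, 6.76 and 6.67 in siCTR arrays. Its siZNF326 arrays were the tightest of the 9 genes in that group (SD 0.068) and lay above siCTR, and siDBC1 replicate 2 fell just inside the siCTR range. ZMAT3 was 0.47 above siCTR in siZNF326 arrays (SE 0.14, interval 0.15 to 0.79, 1.39-fold, adjusted p = 0.354 by limma) and 0.32 above it in siDBC1 arrays (interval 0.01 to 0.64, adjusted p = 0.801), or 0.17 without siDBC1 replicate 3.

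TP53INP1 encodes a stress protein that takes part in p53 signalling and in autophagy. It stood at 7.36, 7.17 and 6.93 in siZNF326 arrays, at 7.09, 6.67 and 7.42 in siDBC1 arrays and at 6.46, 6.56 and 6.70 in siCTR arrays. The groups of both targeting siRNAs covered much the same span, the highest array being siDBC1 replicate 3, and of these 6 arrays only siDBC1 replicate 2 overlapped siCTR. The difference from siCTR was 0.58 for siZNF326 (SE 0.20, interval 0.13 to 1.03, adjusted p = 0.438 by limma) and 0.49 for siDBC1 (interval 0.03 to 0.94, adjusted p = 0.783), or 0.31 without siDBC1 replicate 3. Between siZNF326 and siDBC1 it was 0.09 (interval -0.36 to 0.55, adjusted p = 0.907), a difference whose sign depended on single arrays.

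SPATA18, also called Mieap, is known for the upkeep of damaged mitochondria. Its values were 6.52, 5.85 and 5.90 in siZNF326 arrays, 5.51, 5.35 and 5.95 in siDBC1 arrays and 5.49, 5.04 and 5.53 in siCTR arrays. The siZNF326 arrays lay above siCTR with replicate 1 well above the others, and siDBC1 and siCTR overlapped. The siZNF326 difference was 0.74 (SE 0.24, interval 0.18 to 1.29, 1.66-fold, adjusted p = 0.418 by limma) and the siDBC1 difference 0.25 (interval -0.30 to 0.80, adjusted p = 0.968). For siDBC1 it was 0.075 without siDBC1 replicate 3, 0.092 without siCTR replicate 2 and 0.38 without siDBC1 replicate 2.

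Within a group, the 9 genes largely followed the same order of arrays. In siZNF326 arrays replicate 1 was the highest of its group for 8 of 9 genes (all but ZMAT3), against 49.7% of all probe sets. In siDBC1 arrays replicate 3 exceeded replicate 1, which exceeded replicate 2, for 8 of 9 genes (all but DDB2), against 44.8% of all probe sets. The medians of whole arrays had the same order, at 5.90, 5.77 and 5.76 in siZNF326 replicates 1, 2 and 3, and 5.73, 5.58 and 5.89 in siDBC1 replicates. After array centring or quantile normalization the median difference of the 9 genes from siCTR was 0.64 for siZNF326 and 0.31 for siDBC1. The median distance of the 9 genes from their own siCTR means was 1.16, 0.60 and 0.53 in siZNF326 replicates 1, 2 and 3, and 0.29, 0.078 and 0.77 in siDBC1 replicates 1, 2 and 3. Single siCTR arrays lay at -0.042, -0.043 and 0.13 on this measure. Thus siZNF326 replicate 1 and siDBC1 replicate 3 were the arrays farthest above siCTR and siDBC1 replicate 2 the nearest to it. They are the same 3 arrays that lay farthest along the array axis, where the first 2 were at the high end and siDBC1 replicate 2 at the low end.

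**Figure D3:**
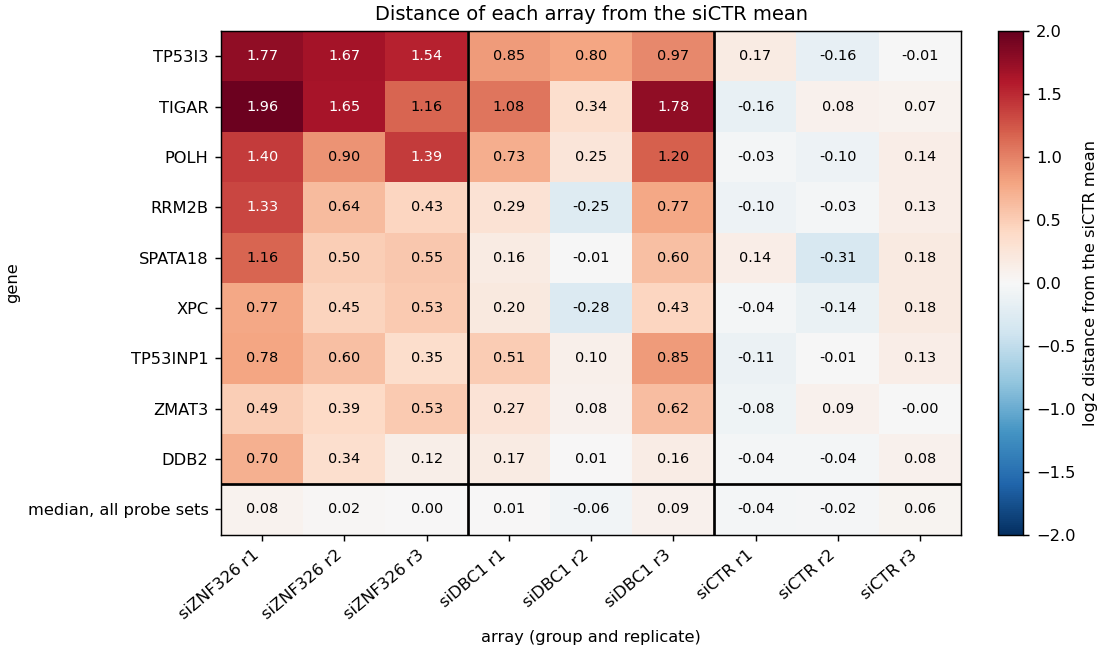
Distance of each of the 9 genes from its own siCTR mean (log2) in every array, with arrays as columns from siZNF326 at the left through siDBC1 to siCTR at the right; colours run from blue (below) to red (above) and the bottom row is the median over all probe sets. The siZNF326 columns are raised for every gene, siDBC1 replicate 2 is the palest of the siDBC1 columns (median 0.078) and siDBC1 replicate 3 the strongest (0.77).

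The differences were also fitted with these arrays taken into account. The array axis comes from the same arrays and probe sets and may hold part of the siRNA differences. Calls made with it as a covariate are therefore no separate check. With the array axis as a covariate, the median difference of the 9 genes was 0.43 for siZNF326 and 0.30 for siDBC1 against siCTR, and TP53I3, TIGAR and POLH were called in both comparisons, where 2.03% of all probe sets were called for siZNF326 and 2.24% for siDBC1. Without the 3 farthest arrays, which leaves 2 siZNF326 arrays and 1 siDBC1 array, the medians were 0.52 and 0.29, with all 9 genes higher in both comparisons and 0 called, as were 0% of all probe sets. The lone siDBC1 array is there assumed to vary like the arrays of the other groups, so its count of calls says little. The number with an unadjusted p under 0.05 was 9 for siZNF326 (6.13% of all probe sets were higher at that limit), 8 without the 3 arrays, and 4 without siZNF326 replicate 1 or 5 without siCTR replicate 2 alone. For siDBC1 it was 5 (3.63% of all probe sets) and it was 2 without siDBC1 replicate 3, siCTR replicate 1 or siCTR replicate 2, and 3 without siDBC1 replicate 1 or siZNF326 replicate 2. Likewise the siDBC1 median was 0.53 without siDBC1 replicate 2 and 0.17 without siDBC1 replicate 3. Between siZNF326 and siDBC1 the median difference of the 9 genes was 0.49. It was 0.27 without siDBC1 replicate 2 or siZNF326 replicate 1, 0.66 without siDBC1 replicate 3, 0.22 with the array axis as a covariate and 0.29 without the 3 farthest arrays. TP53I3 and XPC did not overlap between these groups, against 5.21% of all probe sets. The same 2 genes had an unadjusted p under 0.05 (4.88% of all probe sets were higher at that limit), a number that ran between 1 and 7 as single arrays were left out, with 7 when siDBC1 replicate 3 was omitted and 1 without siDBC1 replicate 1 or 2, siZNF326 replicate 1 or siCTR replicate 1.

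Among other p53 targets, those of arrest, death and p53 control were higher on average in siZNF326 arrays for 22 of 24 measured genes, with 1 called, and for 20 of 24 in siDBC1 arrays, with 0 called. Their median difference was 0.53 for siZNF326 and 0.21 for siDBC1, against 0.74 and 0.32 for the 9 genes above. The list ranged from -0.33 to 2.05 for siZNF326 and from -0.47 to 1.03 for siDBC1. Its lowest gene in both was SESN2, wholly below siCTR (adjusted p = 0.536 and 0.568 by limma). CDKN1A, which encodes the cell cycle inhibitor p21, was the gene called. It stood at 8.72, 8.68 and 8.32 in siZNF326 arrays, at 7.93, 7.84 and 7.98 in siDBC1 arrays and at 7.16, 6.82 and 7.22 in siCTR arrays. As with TP53I3, these formed 3 separate bands. CDKN1A rose in siZNF326 arrays by 1.51 (SE 0.14, adjusted p = 0.0216 by limma) and was 0.85 above siCTR in siDBC1 arrays (adjusted p = 0.216). The death effector BAX was 0.94 above siCTR in siZNF326 arrays (adjusted p = 0.0613 by limma) and 0.84 above it in siDBC1 arrays (adjusted p = 0.17). MDM2, the ligase that limits p53, was 1.20 above siCTR in siZNF326 arrays (adjusted p = 0.207 by limma) and 0.39 above it in siDBC1 arrays (adjusted p = 0.941), and the kinase PLK2 was 1.19 (adjusted p = 0.163) and 0.66 (adjusted p = 0.736) above it.

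Further p53 targets of repair, redox and metabolism were higher on average in siZNF326 arrays for 10 of 10 measured genes, with 0 called and a median of 0.27, and in siDBC1 arrays for 8 of 10, with 0 called and a median of 0.18. The 3 with the smallest p in siZNF326 arrays were NINJ1, an adhesion and membrane rupture protein (0.44), ACER2, an alkaline ceramidase (0.29), and GAMT, an enzyme of creatine synthesis (0.22), with adjusted p between 0.505 and 0.542 by limma.

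The machinery in which the members work was then read from lists of pathway partners. Nucleotide excision repair, around XPC and DDB2, had 14 of 17 measured genes higher on average in siZNF326 arrays and 5 of 17 in siDBC1 arrays, with 0 called in either and medians of 0.12 and -0.032. RPA1 and RPA2, subunits of the single-strand binding protein, differed from siCTR by 0.47 and 0.31 in siZNF326 arrays (adjusted p = 0.557 and 0.659 by limma), and GTF2H5, the smallest subunit of TFIIH, by 0.74 (adjusted p = 0.663). Translesion synthesis, around POLH, had 9 of 9 higher in siZNF326 arrays and 6 of 9 in siDBC1 arrays, with 0 called and medians of 0.32 and 0.0064. Its lead genes were REV3L, the catalytic subunit of polymerase zeta (0.58 in siZNF326 arrays, adjusted p = 0.667 by limma), and UBE2A and UBE2B, which ubiquitinate the sliding clamp together with RAD18 (0.62 and 0.37, adjusted p = 0.686 and 0.705).

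Deoxynucleotide supply, around RRM2B, had 4 of 7 genes higher in siZNF326 arrays and 3 of 7 in siDBC1 arrays, with 0 called and medians of 0.036 and -0.098. RRM1, the large subunit that RRM2B pairs with, was 0.32 above siCTR in siZNF326 arrays (adjusted p = 0.751 by limma), thymidylate synthase TYMS 0.44 above it (0.609) and the mitochondrial thymidine kinase TK2 0.36 below it (difference -0.36, adjusted p = 0.379). Enzymes of NADPH, quinone and sterol redox chemistry, around TIGAR, TP53I3 and FDXR, were higher for 6 of 9 genes in siZNF326 arrays and 3 of 9 in siDBC1 arrays, with 0 called and medians of 0.080 and -0.061. PGD, a dehydrogenase of the pentose phosphate pathway, differed by 0.48 in siZNF326 arrays (adjusted p = 0.325 by limma), ferredoxin FDX1 by 0.48 (0.654) and transketolase TKT by -0.15.

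Autophagy and mitophagy genes, around TP53INP1 and SPATA18, were higher for 8 of 10 in siZNF326 arrays and 3 of 10 in siDBC1 arrays, with 0 called and medians of 0.20 and -0.038. MAP1LC3B, which coats autophagosomes, differed by 0.81 in siZNF326 arrays (adjusted p = 0.556 by limma), TP53INP2, the paralog of TP53INP1, by 0.21 (0.587), and the mitophagy receptor BNIP3L by 0.35 (0.603). Of the relatives of ZMAT3, 3 were measured, with 0 called and medians of -0.035 for siZNF326 and -0.090 for siDBC1; ZMAT2 differed by 0.31 in siZNF326 arrays (adjusted p = 0.706 by limma). The list of p53 regulators and relatives, which also holds both siRNA targets, was higher for 11 of 13 genes in siZNF326 arrays, with 0 called and a median of 0.19, and for 5 of 13 in siDBC1 arrays, with a median of -0.055 and CCAR2 called lower. HIPK2, a kinase of p53, differed by 0.39 and the damage kinase ATR by 0.53 in siZNF326 arrays (adjusted p = 0.507 and 0.673 by limma).

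**Figure D4:**
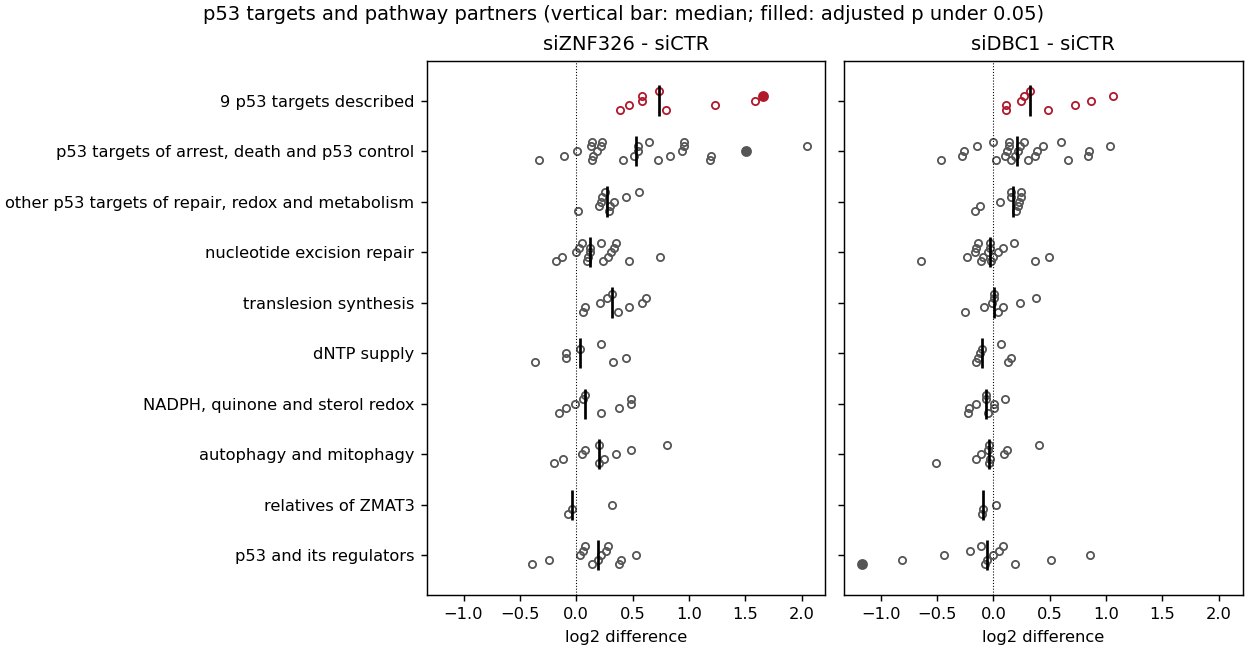
Log2 difference from siCTR of every measured gene of the 9 described and of 9 lists of other p53 targets and pathway partners, for siZNF326 at the left and siDBC1 at the right; short bars are medians and filled points have an adjusted p under 0.05. The 9 genes have medians of 0.74 and 0.32. The p53 targets of arrest, death and p53 control have 0.53 and 0.21, and the other targets of repair, redox and metabolism 0.27 and 0.18. The lists of pathway partners have medians between -0.035 and 0.32 for siZNF326 and between -0.098 and 0.0064 for siDBC1.

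Genes whose profile over the 9 arrays, taken as the difference from their own siCTR mean, lay closest to those of TP53I3 and POLH were found by the root mean square difference. The profiles were not scaled, so a gene with a rise of similar size ranks close. The median of all genes given below is largely the distance of genes that changed little. Closest to TP53I3 was CDKN1A at 0.12, followed by COQ10B, a mitochondrial coenzyme Q binding protein (0.27), the microtubule protein MAP1A (0.28), the lysosomal protease CTSA (0.32) and the antiproliferative protein TOB1 (0.36), where the median of all genes was 1.08. POLH was the 6th and TIGAR the 8th gene on that ranking, and the other 6 members ranked between 186 and 1232. Closest to POLH were PLK2 (0.12), the kinesin KIF5C (0.18), the peroxisomal acyltransferase CROT (0.19), the chaperone HSPA4L (0.22) and the inositol transporter SLC5A3 (0.22), where the median was 0.86. On the POLH ranking TP53I3 was 70th and TIGAR 123rd, and the other 6 members lay between 193 and 1810.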

How the data were processed

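Per the labels' protocols, RNA was treated with DNase on the column, ribosomal RNA was removed, and targets were prepared for whole-transcript Affymetrix arrays. The deposited values are log2 expression values made by the authors with RMA, with hg18 as the build, per the submitters' processing notes; base 2 was inferred from RMA and from values of 0.333 to 13.4. Background and detection values were not used here. The number of arrays limits the precision, with 3 independent experiments per siRNA. The p-values rest on 1 spread per probe set, taken over all 9 arrays of the 3 groups and moderated by eBayes. A wide spread in 1 group, as for TIGAR in siDBC1 arrays, therefore enters all 3 comparisons. A single symbol was given for 14432 of the 22011 probe sets, more than 1 for 2408, and no symbol for 5171; gene identifiers matched 14404 to a current RefSeq table and changed 0 symbols. Every column of values was assigned to a sample.

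Group means of the 3 siRNAs were fitted together for all probe sets with limma 3.58.1 (lmFit, eBayes) in R 4.3.3, two-sided, with Benjamini-Hochberg adjustment within each comparison. The fit was also run on simulated data. Its probe sets varied independently, without an array axis like the one seen here, so that run does not check the calls against such an axis. Lists used the probe set with the highest mean per gene. The members and lists were chosen with earlier results of these data known, so their counts and medians describe them and are no independent support. Besides the members, the siRNA targets, CDKN1A, BAX and MDM2, the text names up to 3 genes per list, those with the smallest p for siZNF326 against siCTR, any called member of a list, and the 5 genes with profiles closest to TP53I3 and to POLH. SESN2 was named as the lowest gene of its list. Alternatives were array centring, quantile normalization, filters on dim probe sets and on annotation, eBayes with trend and robust fitting, fitting 2 groups, the replicate number as a block, and leaving out each array. The array axis as a covariate and leaving out its 3 farthest arrays were added after seeing the data. Deviations of same-numbered arrays from their group means correlated between -0.296 and 0.396, and those of different-numbered arrays between -0.567 and 0.610. Both extremes of the latter lay between arrays far along the array axis. These correlations therefore cannot show whether equal numbers mark the same experiment. In the main fit the numbers were not taken as pairs.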

Additional observations from a re-analysis of the deposited data

How the results depend on the processing

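The values of 27 differences (9 genes in 3 comparisons) kept their direction and their side of the threshold in 464 refits, passed the threshold anew in 12, lost it in 4 and changed sign in 6; the cause was not tested. The sign changes were TP53INP1 between siZNF326 and siDBC1 (-0.095 with the array axis as a covariate, -0.042 after quantile normalization, -0.038 without the 3 farthest arrays, and -0.10 to 0.27 over single arrays left out, with -0.10 without siDBC1 replicate 2 and -0.010 without siZNF326 replicate 1) and XPC in siDBC1 arrays against siCTR (-0.042 to 0.31 over single arrays left out, lowest without siDBC1 replicate 3). Of the 9 genes, 1 was called for siZNF326, 0 for siDBC1 and 0 between them. The array axis as a covariate gave 3 (TP53I3, TIGAR and POLH) for siZNF326, the same 3 for siDBC1 and 1 (TP53I3) between them. Quantile normalization gave 3 (TP53I3, TIGAR and POLH) and 1 (TP53I3), centring 2 (TP53I3 and POLH) and 1 (TP53I3), and keeping probe sets with 1 symbol gave 1 for siDBC1 (TP53I3, adjusted p = 0.0477 by limma). The replicate number as a block gave 0 for siZNF326 (TP53I3 1.66, adjusted p = 0.0678 by limma), leaving out the 3 farthest arrays 0, and single arrays left out 0 to 1 for siZNF326, 0 to 0 for siDBC1 and 0 to 0 between them.

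Over all probe sets, 33 were called for siZNF326 (20 higher and 13 lower), 8 for siDBC1 and 2 between them. In that order the counts were 447, 493 and 116 with the array axis, 119 (57 higher and 62 lower), 46 and 9 after centring, 196 (89 higher and 107 lower), 69 and 28 after quantile normalization, 52, 11 and 4 with 1 symbol, 5, 0 and 0 with 2 groups fitted, and 1, 0 and 0 with the replicate block. They were 0, 0 and 0 without the 3 farthest arrays (2401, 1910 and 1887 at an unadjusted p under 0.05 by limma), 4 for siDBC1 with trend and robust fitting, and over single arrays left out 1 to 64, 0 to 4 and 0 to 1. In the main fit 1904, 1360 and 1609 had an unadjusted p under 0.05.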

Other observations

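The nearest protein-coding genes on each side of the 9 members on GRCh38.p14, chosen after the members' values were seen, numbered 18, of which 14 were measured and 0 were called by limma in any of the 3 comparisons (3 for siZNF326 and 3 for siDBC1 against siCTR, and 1 between them, had an unadjusted p under 0.05). Their median difference from siCTR was 0.10 in siZNF326 arrays and 0.0034 in siDBC1 arrays, against 0.74 and 0.32 for the 9 members. All 3 siZNF326 arrays lay above siCTR for 3 of the 14, against 12.9% of all probe sets. These were LSM3 beside XPC, and SGCB and USP46 on the sides of SPATA18. The siZNF326 arrays lay wholly below siCTR for CCND2, for TMEM43 beside XPC (-0.30, adjusted p = 0.663 by limma) and for GTPBP2 beside POLH (-0.34, adjusted p = 0.61). In siDBC1 arrays GTPBP2 (-0.51, adjusted p = 0.644 by limma) and PFN4 beside TP53I3 (-0.32, adjusted p = 0.872) were wholly below siCTR. LSM3 was wholly above it there (0.51, adjusted p = 0.778), as were 5.18% of all probe sets. The share of all probe sets wholly below siCTR is not given here. CCND2, a cyclin gene beside TIGAR, stood at 8.61, 8.35 and 8.06 in siZNF326 arrays, at 8.40, 8.20 and 8.78 in siDBC1 arrays and at 8.78, 9.15 and 9.30 in siCTR arrays. Its differences of -0.74 (adjusted p = 0.347 by limma) and -0.62 (0.694) ran opposite to those of TIGAR and did not pass the threshold. XPO5, the export receptor gene beside POLH, differed by -0.011 in siZNF326 arrays (adjusted p = 0.991 by limma), and LSM3, a splicing factor subunit gene, by 0.69 (0.355).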
